A study of Mus musculus with 12 samples.

Results

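Chemokine ligands, the secreted proteins that attract leukocytes, were examined in mast cells grown from mouse bone marrow (BMMCs) and activated through IgE, after knockdown of Regnase-1, Regnase-3 or both. The members were all probes of the panel whose name began with Ccl, Cxcl, Xcl or Cx3cl followed by a digit. This gave 33 of 734 endogenous probes: 21 CC ligands, 11 CXC ligands and Cx3cl1, with no probe for an Xcl ligand. Of these 33 members, 18 (54.5%) were above background, defined as a raw count over the mean plus 2 SD of the negative control probes of the same library in at least 3 of the 12 samples. By the same rule 476 of all 734 endogenous probes were above background.

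The BMMCs came from 3 C57BL/6-background mice and were cultured in IL-3, which drives precursors towards mast cells, and the methods give the mice as 6 to 8 weeks old. Cells of each mouse received siRNAs against both Zc3h12a and Zc3h12c (si12A+C), against Zc3h12a alone (si12A), against Zc3h12c alone (si12C), or the control siGLO, which gave 4 groups of 3 samples. All 12 samples, controls included, were electroporated and were activated 48 h later with complexes of IgE and antigen for 2 h, so no resting cells entered the comparison. RNA (50 ng) was counted on the NanoString nCounter Myeloid Innate Immunity Panel, where each transcript bound by its colour-coded probe is counted without amplification. The panel's probes do not read Zc3h12a or Zc3h12c, and knockdown was not assessed here. Each siRNA treatment was a pool, so that no result belongs to a single siRNA.

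Regnase-1, encoded by Zc3h12a, is an endoribonuclease that cuts stem-loops of inflammatory mRNAs, and Regnase-3, encoded by Zc3h12c, is a related protein. Chemokines act on G protein-coupled receptors: CC ligands mainly on CCR receptors and CXC ligands on CXCR receptors. Mast cells crosslinked through their IgE receptor are a known source of CC ligands such as Ccl1, Ccl2, Ccl3, Ccl4 and Ccl7, and NFAT and NF-kB are among the transcription factors that act downstream of this receptor.

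The siRNAs against Zc3h12a and Zc3h12c are shown because they distinguish the knockdown groups. The control cells received siGLO Green Transfection Indicator instead, which is not shown, so comparisons against siGLO also differ by that reagent. Each siRNA shown is 19 bases long and is written as the study lists it, 5′ to 3′, with the strand not stated. Zc3h12a lies on mouse chromosome 4 and Zc3h12c on chromosome 9. The si12A+C cells received both pools.
Zc3h12a siRNA 1: gcagagatcctgtcttaca
Zc3h12a siRNA 2: gagcgaggccacacagata
Zc3h12a siRNA 3: gaaatgtacgtatggaatc
Zc3h12a siRNA 4: gaaagggctggtgtatata
Zc3h12c siRNA 1: gcccaagtctggataattt
Zc3h12c siRNA 2: gcacttaagttaggttatt
Zc3h12c siRNA 3: gcactacacctttaagcaa
Zc3h12c siRNA 4: ggatattattccatgttga
The 4 siRNAs against Zc3h12c had a GC content of 31.6% to 42.1%, and those against Zc3h12a 36.8% to 57.9%.

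The 250 bases before the start of the gene are shown for Ccl17, Ccl1 and Ccl3. Ccl17 was called in si12A+C against siGLO cells in edgeR's fit with the mouse as a block, described below, but not without it. Ccl1 and Ccl3 were both among the most counted ligands. The sequences are from RefSeq (GRCm38.p6) and run 5′ to 3′ along the gene. Capitals mark matches on either strand to the NFAT core GGAAA or to an NF-kB form, GGGNNNNNCC, which may overlap each other.
Ccl17 promoter, chr8:94810203-94810452 (plus strand): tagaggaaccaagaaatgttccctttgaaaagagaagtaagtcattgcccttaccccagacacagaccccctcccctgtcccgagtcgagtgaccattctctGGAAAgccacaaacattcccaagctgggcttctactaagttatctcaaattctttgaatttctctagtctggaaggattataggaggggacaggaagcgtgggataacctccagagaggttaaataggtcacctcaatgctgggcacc
Ccl1 promoter, chr11:82179813-82180062 (minus strand): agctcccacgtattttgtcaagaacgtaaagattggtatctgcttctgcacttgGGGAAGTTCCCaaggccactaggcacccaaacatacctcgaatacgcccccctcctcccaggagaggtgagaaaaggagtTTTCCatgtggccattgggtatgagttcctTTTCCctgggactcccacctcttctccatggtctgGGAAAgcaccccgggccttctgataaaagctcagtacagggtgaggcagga
Ccl3 promoter, chr11:83649379-83649628 (minus strand): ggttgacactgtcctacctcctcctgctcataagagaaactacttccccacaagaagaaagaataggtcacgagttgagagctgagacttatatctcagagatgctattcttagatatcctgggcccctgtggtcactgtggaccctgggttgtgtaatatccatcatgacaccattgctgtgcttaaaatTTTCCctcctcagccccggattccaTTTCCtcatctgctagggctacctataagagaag
The Ccl17 window held 1 NFAT core and no NF-kB form, the Ccl1 window 3 and 2, and the Ccl3 window 2 NFAT cores and no NF-kB form. Both Ccl1 matches to the NF-kB form overlapped, shifted by 1 base. RefSeq promoters were matched for 23 of the 33 members, in 26 entries. The NFAT core was present in 17 of these 26 entries (65.4%), against 55.6% of all 32851 mouse promoter windows of this length, and the NF-kB form in 15 of 26 (57.7%), against 45.8%. These entries include members under background. Of the 18 members above background 12 had a matched promoter, and Ccl2, Ccl4, Ccl5 and Ccl7 were among those without. Among the 12, the NFAT core was present in 10 (83.3%) and the NF-kB form in 5 (41.7%), the latter below the share of all windows. These matches are a description of letters in the windows.

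Counts below are scaled counts: raw counts divided by the TMM-scaled total of their library and multiplied by the mean of those totals. The background limit, on the same scale, lay between 14.4 and 36.8 in the 12 libraries. Library totals were 439015 to 795758 raw counts. Counts of different probes also depend on how well each probe binds, so their order is an order of counts and not of molecules. In bulk RNA, fewer cells of a type and less RNA per cell cannot be told apart. The 8 mast cell markers examined (Kit, Fcer1a, Ms4a2, Cpa3, Cma1, Tpsb2, Hdc and Gata2) were all above background in 12 of 12 samples. Of 13 macrophage and monocyte markers 4 were above background (Adgre1, Cd68, Mrc1 and Ly6c1), whereas Csf1r, Marco and the C1q genes were above it in 0 of 12 samples. Ly6c1 averaged 3019 scaled counts over the 12 samples and Cd68, the next highest of these markers, 63.9. The sums of this list are therefore mostly Ly6c1. The summed macrophage and monocyte markers were 2218 to 4508 scaled counts in si12A+C cells, 2281 to 4294 in si12A, 2086 to 4101 in si12C and 2143 to 4956 in siGLO cells, and the summed mast cell markers were 131198 to 183059 in si12A+C, 150922 to 195229 in si12A, 160465 to 210235 in si12C and 166917 to 196249 in siGLO cells. Of 7 neutrophil, 4 eosinophil, 6 dendritic cell and 7 lymphocyte markers, 2, 1, 3 and 2 were above background, with Siglecf the eosinophil marker and S100a8, S100a9 and Ly6g above it in 0 samples.

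Chemokine ligands made up a large part of the signal of activated BMMCs. They took 27.3% ± 3.0 of the endogenous counts in si12A+C cells, 26.0% ± 2.1 in si12A cells, 25.1% ± 1.3 in si12C cells and 24.7% ± 1.4 in siGLO cells (SD, n = 3 each). The 12 libraries ran from 23.2% to 30.1%, and the widest 95% Wilson interval of a library spanned 0.259 percentage points, for counting error only. The siGLO sample was the lowest of the 4 in each mouse, and the groups overlapped. Ccl1, Ccl2, Ccl3, Ccl4 and Ccl7 held 98.6% to 99.2% of all chemokine counts in every library. The other 13 members above background summed to 1761 ± 627 scaled counts in si12A+C cells, 1274 ± 260 in si12A, 1939 ± 261 in si12C and 1466 ± 220 in siGLO cells.

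**Figure D1:**
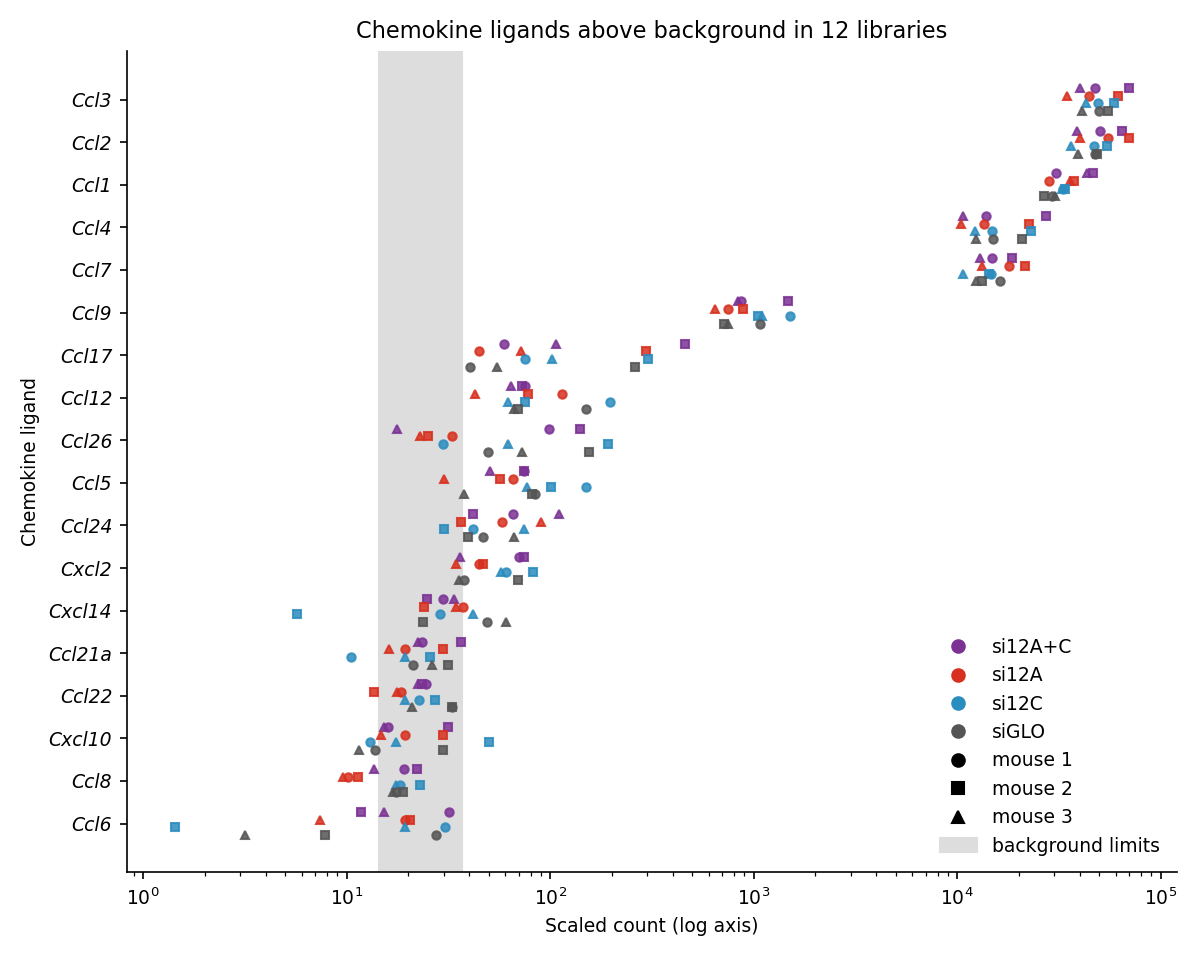
Scaled counts (log axis) of the 18 chemokine ligands above background in each of the 12 libraries, coloured by siRNA group and with the mouse as the symbol; the grey band spans the background limits of the libraries, 14.4 to 36.8. Ccl1, Ccl2, Ccl3, Ccl4 and Ccl7 stood apart above all others in every library, Ccl9 between 645.3 and 1506, and most values of the lowest 6 genes fell within or under the band.

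In all 12 samples 11 members were above background: Ccl1, Ccl2, Ccl3, Ccl4, Ccl5, Ccl7, Ccl9, Ccl12, Ccl17, Ccl26 and Cxcl2. Ccl24 passed in 11 samples, Cxcl14 in 8, Ccl22 in 7, Ccl21a in 6, Ccl6 and Cxcl10 in 4 each and Ccl8 in 3. Ccl21a was above background in 3 of 3 si12A+C, 2 si12A, 0 si12C and 1 siGLO samples, and its counts are uncertain since the mouse genome holds near-identical copies of it. The remaining 15 members had raw counts of 1 to 25. Cxcl11 exceeded the limit in 2 samples and Ccl27a, Ccl28 and Cxcl3 in 1 each. Ccl11, Ccl19, Ccl20, Ccl25, Cx3cl1, Cxcl1, Cxcl5, Cxcl9, Cxcl12, Cxcl13 and Cxcl16 did so in 0 samples, so that no level or difference was detectable for them at this depth.

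Most members above background lie on 1 chromosome. By RefSeq's mouse annotation (GRCm38.p6), 12 of the 33 members lie on chromosome 11, and 10 of these were above background, 8 of them in all 12 samples. On chromosome 5, which carries 10 members, 4 were above background (Ccl24, Ccl26, Cxcl2 and Cxcl10). All members on chromosome 11 but Cxcl16 are CC ligands, so the split by chromosome overlaps that by class. Of 21 CC ligands 15 were above background and of 11 CXC ligands 3 (Cxcl2, Cxcl10 and Cxcl14). Cxcl1, Cxcl3 and Cxcl5, which like Cxcl2 attract neutrophils, were not.

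Of the 5 abundant ligands, Ccl2, Ccl3, Ccl4 and Ccl7 overlapped between the siRNA groups in each comparison. Ccl3, a ligand of CCR1, had 47592, 69859 and 39935 scaled counts in si12A+C cells of mice 1, 2 and 3, 44177, 61950 and 34641 in si12A cells, 48972, 59064 and 43089 in si12C cells, and 49966, 55329 and 41184 in siGLO cells. Mouse 2 was the highest of the 3 mice in every group, and the groups overlapped. Ccl4 (MIP-1 beta), a CC ligand related to Ccl3, had 13789, 27179 and 10611 scaled counts in si12A+C cells, 13516, 22564 and 10435 in si12A, 14807, 23067 and 12203 in si12C, and 15063, 20865 and 12353 in siGLO cells. It followed the order of Ccl3, with mouse 2 apart from the other mice in all 4 groups.

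Ccl2 and Ccl7, ligands of the monocyte receptor CCR2, stood highest in si12A cells. Ccl2 had 50194, 64516 and 38598 scaled counts in si12A+C cells, 55124, 69958 and 39876 in si12A, 47225, 54317 and 36346 in si12C, and 47290, 48463 and 39247 in siGLO cells. Ccl7 had 14892, 18573 and 12968 scaled counts in si12A+C cells, 18052, 21505 and 13185 in si12A, 14664, 14262 and 10642 in si12C, and 16256, 13172 and 12350 in siGLO cells. Both were above siGLO in si12A cells of 3 of 3 mice, and the 2 groups overlapped. The log2 fold change of si12A over siGLO, from edgeR's quasi-likelihood fit that included the mouse as a block, was 0.25 ± 0.10 (SE, adjusted p = 0.104) for Ccl2 and 0.31 ± 0.12 (adjusted p = 0.104) for Ccl7, neither of which passed.

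Ccl1, the ligand of CCR8, had 30420, 46465 and 43639 scaled counts in si12A+C cells, 28163, 37554 and 35634 in si12A, 32939, 33665 and 32742 in si12C, and 29367, 26600 and 30269 in siGLO cells. The si12A+C samples all lay above the siGLO samples, mouse 1 by the least, and the si12C samples did so too. With the mouse as a block its log2 fold change of si12A+C over siGLO was 0.46 ± 0.12 (SE, edgeR adjusted p = 0.037), under the fold limit of 0.5 and so not called. Without the mouse 1 samples it was 0.71 ± 0.12 (adjusted p = 4.7e-05) and without those of mouse 2 it was 0.31 ± 0.11 (adjusted p = 0.172).

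More ligands passed the test for the mouse than any test between siRNA groups, but these tests differ in degrees of freedom and in their limits. The mouse term of edgeR's fit was tested for each probe, and the limit was an adjusted p of 0.05 with no fold limit. Calls between siRNA groups also needed the fold limit. It called 14 of the 18 members above background (77.8%), beside 57.7% of all 496 probes tested. Mouse 2 had the highest mean over the 4 groups for 11 of the 18 members, mouse 1 for 5 and mouse 3 for 2. For Ccl3, Ccl4, Ccl17, Ccl24 and Cxcl10, the 4 libraries of the highest mouse all lay above the 8 libraries of the other mice, which was also so for 16.3% of the 496 probes tested. The mouse means of Ccl17, a ligand of CCR4, were 54.8 in mouse 1, 328.8 in mouse 2 and 83.6 in mouse 3, a range of 6.0-fold (edgeR adjusted p = 1.9e-08). For Ccl26 (eotaxin-3 in human, a ligand of the eosinophil receptor CCR3) the range was 2.94-fold and for Ccl24 (eotaxin-2, also a CCR3 ligand) 2.31-fold, with mouse 2 highest for Ccl26 and mouse 3 for Ccl24. The 4 members whose mouse term did not pass were Ccl1, Ccl8, Ccl9 and Ccl22, with adjusted p-values of 0.142 to 0.489. What sets the mice apart (animal, culture or day) cannot be told apart.

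**Figure D2:**
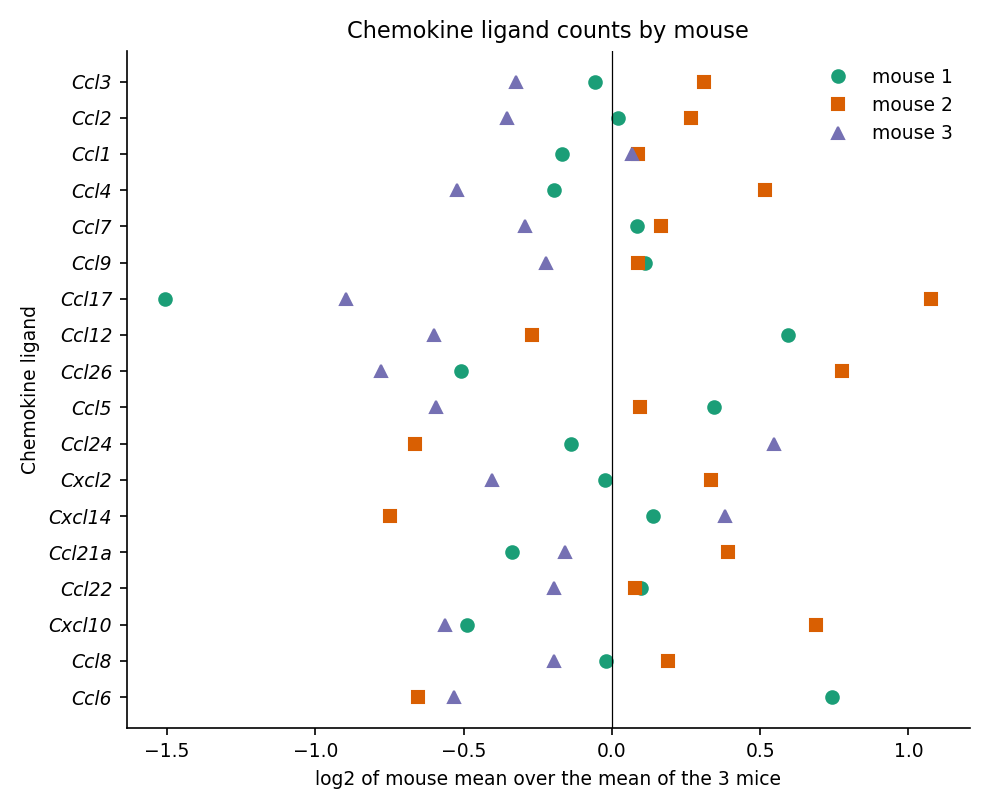
Mean scaled count of each of the 18 chemokine ligands over the 4 siRNA groups, by mouse, as log2 of the mouse's mean over the mean of the 3 mice (points, 4 libraries each); 0 is the average of the mice. Ccl17 has the widest spread, 328.8 scaled counts in mouse 2 and 54.8 in mouse 1, and Ccl1 one of the narrowest, 36071 and 30222.

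A pair of fits was therefore set side by side, both over all 496 probes, with Benjamini-Hochberg adjustment over those probes in every comparison. A ligand was called where the adjusted p did not exceed 0.05 and the log2 fold change was over 0.5 or under -0.5. Without a mouse term edgeR called 0 of the 18 members in each of 7 comparisons, and 0% of the 3472 probe tests overall. At an unadjusted p under 0.05 this fit had 1 member for si12A+C against siGLO, 3 for si12A against siGLO, 0 for si12C against siGLO, 1 for si12A+C against si12A, 0 for si12A+C against si12C, 4 for si12A against si12C and 1 for the departure from additivity. Of the 496 probes tested, 6.65%, 7.66%, 0.403%, 2.82%, 3.02%, 5.65% and 1.61% were at such a p, in the same order. DESeq2 without the block called 0 members as well. Equal replicate numbers were taken as cells of 1 mouse, although the sample titles name no mouse. With the mouse added as a block edgeR called Ccl17 and Ccl5, and these calls rest on that pairing. In deviations from the group means, si12A+C number 1 correlated at only 0.166 with siGLO number 1 and 0.178 with si12C number 1. All fold changes below are from the fit with the block.

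Ccl17 was higher in si12A+C cells than in siGLO cells once the mouse was a block. It had 59.4, 457.4 and 106.4 scaled counts in si12A+C cells of mice 1, 2 and 3, 44.7, 294.7 and 72.0 in si12A cells, 74.8, 302.0 and 101.6 in si12C cells, and 40.4, 261.0 and 54.6 in siGLO cells. Within each mouse the siGLO sample was the lowest of the 4, while across mice the groups overlapped throughout. The log2 fold change of si12A+C over siGLO was 0.79 ± 0.17 (SE, adjusted p = 0.017), with 0.56, 0.81 and 0.96 in the 3 mice, and in the fit without the block it was 0.82 ± 0.99 (adjusted p = 1.00). It was the only one of 18 members (5.56%) called higher, beside 3.43% of all probes, and 0 members were called lower, beside 2.62%. In si12C cells it was 0.63 ± 0.17 (adjusted p = 0.274) over siGLO and in si12A cells 0.23 ± 0.17 (adjusted p = 0.390), and si12A+C exceeded si12A by 0.56 ± 0.16 (adjusted p = 0.232). The call for si12A+C was lost without mouse 2 (adjusted p = 0.054) or mouse 3 (adjusted p = 0.167), without the siGLO library of mouse 3 (adjusted p = 0.072), or without the si12A+C library of mouse 2 (adjusted p = 0.127) or mouse 3 (adjusted p = 0.057), at log2 fold changes of 0.66 to 0.79.

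Ccl22, which shares the receptor CCR4 with Ccl17, did not follow it. It had 24.4, 23.5 and 22.4 scaled counts in si12A+C cells, 18.5, 13.7 and 17.6 in si12A, 22.6, 27.1 and 19.4 in si12C, and 33.0, 33.0 and 21.0 in siGLO cells, all of them near the background limit. Its log2 fold change over siGLO was -0.28 ± 0.24 in si12A+C (adjusted p = 0.614), -0.75 ± 0.25 in si12A (adjusted p = 0.068) and -0.34 ± 0.24 in si12C cells (adjusted p = 0.971).

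Ccl5 (RANTES), a ligand of CCR1 and CCR3, was lower in si12A cells than in si12C cells in the fit with the block. It had 74.2, 74.3 and 50.4 scaled counts in si12A+C cells of mice 1, 2 and 3, 65.7, 56.9 and 30.1 in si12A cells, 149.6, 101.1 and 76.7 in si12C cells, and 84.4, 81.7 and 37.8 in siGLO cells. The si12C samples lay above all si12A and all si12A+C samples, and overlapped the siGLO samples. The log2 fold change of si12A over si12C was -1.13 ± 0.18 (SE, adjusted p = 0.004), with -1.19, -0.83 and -1.35 in the 3 mice, and without the block it was -1.10 ± 0.39 (adjusted p = 0.615). It was 1 of 18 members called lower, beside 2.42% of all probes, and 0 members were called higher, beside 2.42%. This call was lost without mouse 3 (-1.07 ± 0.22, adjusted p = 0.060) and held when any single library of these groups was left out. Against siGLO, Ccl5 was -0.41 ± 0.18 in si12A cells (adjusted p = 0.159) and 0.72 ± 0.18 in si12C cells (adjusted p = 0.150), lower in 3 of 3 mice and higher in 3 of 3 mice, and neither passed.

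Ccl5 was also lower in si12A+C cells than in si12C cells, by -0.70 ± 0.17 (SE, adjusted p = 0.041), with 0 members called higher. The backgrounds were 1.81% of probes lower and 1.21% higher, and without the block the value was -0.72 ± 0.39 (adjusted p = 0.993). This call was lost without any 1 of the 3 mice and without the si12A+C library of mouse 1 or 2 or the si12C library of mouse 1 or 3 (adjusted p-values of 0.064 to 0.243), under DESeq2, limma-trend and no filter on low counts with the block (adjusted p-values of 0.053 to 0.070), and when scaled to reference genes or positive controls (adjusted p-values of 0.094 to 0.571). In si12A+C against siGLO cells it was 0.02 ± 0.18 (adjusted p = 0.971).

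**Figure D3:**
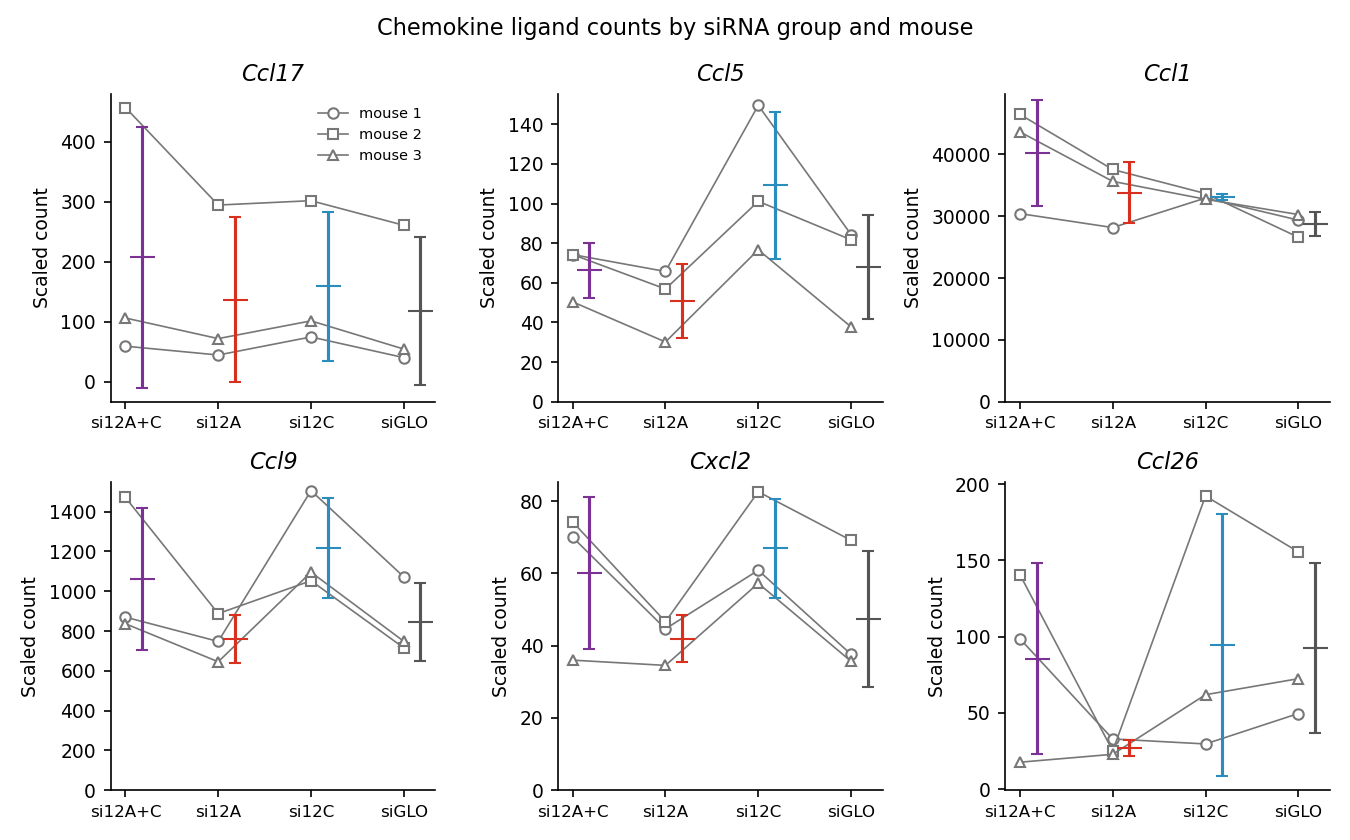
Scaled counts of Ccl17, Ccl5, Ccl1, Ccl9, Cxcl2 and Ccl26 in the 4 siRNA groups (open symbols joined by mouse; coloured bars, mean and SD of 3 mice). Ccl17 lies highest in mouse 2 in every group, with 457.4 scaled counts in si12A+C and 261.0 in siGLO, and Ccl5 lies highest in si12C in each mouse.

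Ccl9 (MIP-1 gamma), a CC ligand of rodent myeloid cells, and Cxcl2, a neutrophil attractant that acts on CXCR2, also had their highest mean in si12C and their lowest in si12A cells, without being called. Ccl9 had 869.8, 1471 and 836.6 scaled counts in si12A+C cells, 747.5, 887.6 and 645.3 in si12A, 1506, 1053 and 1096 in si12C, and 1072, 715.3 and 748.2 in siGLO cells. The si12A samples all lay below the si12C samples, with a log2 fold change of si12A over si12C of -0.69 ± 0.20 (adjusted p = 0.056), and DESeq2 with the block called it. For Cxcl2 the si12A samples (34.5 to 46.7) also lay below the si12C samples (57.3 to 82.6), with a log2 fold change of -0.66 ± 0.21 (adjusted p = 0.061). The share of all tested probes whose siRNA groups separate in this way was not counted. Such separation, here and for the other genes, is therefore a description only. Ccl9 was higher in si12C than in siGLO cells in 3 of 3 mice, by 0.53 ± 0.20 (adjusted p = 0.531), and so was Cxcl2, by 0.54 ± 0.21 (adjusted p = 0.570).

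Ccl12 (MCP-5), a ligand of CCR2 in mice, had 75.3, 73.0 and 64.0 scaled counts in si12A+C cells, 113.8, 77.4 and 42.6 in si12A, 197.4, 75.5 and 61.9 in si12C, and 150.4, 69.2 and 66.1 in siGLO cells. Mouse 1 carried the high values outside si12A+C, and log2 fold changes over siGLO were -0.33 ± 0.25, -0.31 ± 0.25 and 0.18 ± 0.24 in si12A+C, si12A and si12C cells (adjusted p of 0.431 to 0.971).

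Among the members with fewer counts, Ccl26 had the largest log2 difference from siGLO. It had 98.6, 140.7 and 17.6 scaled counts in si12A+C cells of mice 1, 2 and 3, 32.9, 25.0 and 22.8 in si12A, 29.6, 192.3 and 61.9 in si12C, and 49.5, 155.6 and 72.4 in siGLO cells. The si12A samples all lay below the siGLO samples and near their background limits, with a log2 fold change of -1.59 ± 0.54 (adjusted p = 0.077) that did not pass. Without the mouse 1 samples Ccl26 was called lower in si12A against siGLO. In si12A+C cells the 3 mice went different ways against siGLO, 0.99, -0.15 and -2.04 on the log2 scale. Ccl24 was higher in si12A+C than in siGLO cells in 3 of 3 mice, by 0.49 ± 0.17 (adjusted p = 0.113), and higher than in si12C cells by 0.58 ± 0.17 (adjusted p = 0.081). Ccl8 (MCP-2) was at 9.6 to 11.4 scaled counts in si12A cells and 16.8 to 18.9 in siGLO cells, with a log2 fold change of -0.77 ± 0.27 (adjusted p = 0.088). These Ccl8 values straddled the background limits, and 0 of 3 si12A and 1 of 3 siGLO samples exceeded them. The interferon-induced Cxcl10, together with Cxcl14, Ccl6 and Ccl21a, ranged from 1.42 to 60.9 scaled counts over the 12 libraries, and their log2 fold changes over siGLO had adjusted p-values of 0.308 to 0.971.

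**Figure D4:**
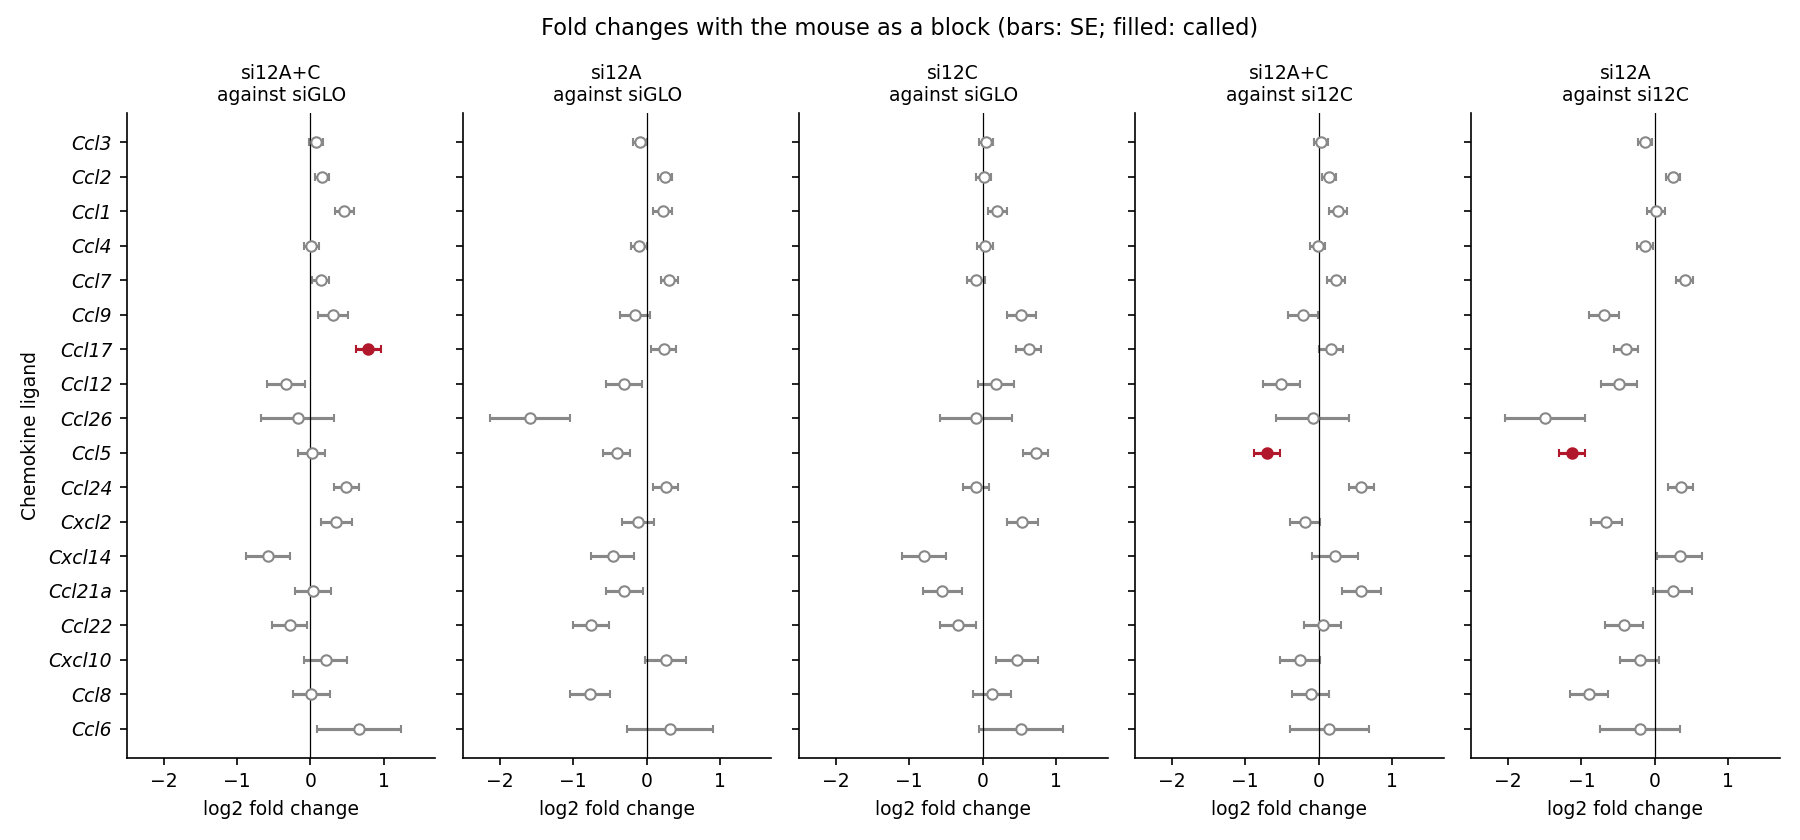
Log2 fold changes of the 18 chemokine ligands above background from edgeR with the mouse block (points; bars, SE), in 5 comparisons; filled red points are called ligands. Ccl17 is called at 0.79 in si12A+C against siGLO, and Ccl5 at -0.70 and -1.13 in si12A+C and si12A against si12C.

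Over the whole family, knockdown of 1 Regnase gave no called ligand against siGLO. In si12A cells 0 of 18 members were called, beside 1.81% of all probes higher and 3.63% lower, with 2 members higher and 4 lower at an unadjusted p under 0.05, beside 29.6% of all probes in either direction. In si12C cells 0 were called, beside 0.403% higher and 0% lower, with 4 higher and 1 lower at an unadjusted p under 0.05, beside 6.05% of all probes in either direction. DESeq2 and limma-trend with the block also called 0 in both. The median log2 fold change of the 18 members over siGLO was 0.11 in si12A+C, -0.11 in si12A and 0.08 in si12C cells, beside 0.01, 0.01 and -0.01 over all 496 probes. In si12A against si12C the median was -0.20, beside 0.00 over all probes, and 12 of 18 members were negative, beside 248 of 496 probes. The comparisons against siGLO share their control samples.

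The design also allowed the double knockdown to be set against each single one. In si12A+C against si12A cells 0 members were called, beside 0% of all probes in either direction. At an unadjusted p under 0.05 there were 6 higher and 0 lower, beside 14.1% of all probes in either direction, and DESeq2 and limma-trend with the block called 0. The departure from additivity, which is the difference of si12A+C from si12A less that of si12C from siGLO, called 0 members beside 0% of probes higher or lower, with 2 members at an unadjusted p under 0.05, beside 8.06% of all probes. For Ccl17 this departure was -0.07 ± 0.24 and for Ccl5 it was -0.29 ± 0.25 on the log2 scale (SE, adjusted p of 0.940 and 0.765).

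The receptors of these ligands were read by 18 probes of the panel, and 8 of them passed the background: Ccr1, Ccr3, Ccr6, Ccr7, Ccrl2, Cxcr3, Cxcr5 and Cx3cr1. Cx3cr1, the receptor of Cx3cl1, was called lower than in siGLO cells in si12A+C and in si12A cells, in the fit with the block. It had 54.1, 69.1 and 64.0 scaled counts in si12A+C cells, 75.8, 74.0 and 66.1 in si12A, 78.3, 118.2 and 65.6 in si12C, and 101.8, 150.9 and 141.7 in siGLO cells. The siGLO samples lay above all si12A+C and all si12A samples. Within each mouse the siGLO sample also lay above the si12C sample. Set directly against si12C cells, neither group passed in edgeR with the block. The log2 fold change of Cx3cr1 was -0.45 ± 0.19 in si12A+C (adjusted p = 0.222) and -0.24 ± 0.19 in si12A cells (adjusted p = 0.447). The log2 fold change over siGLO was -1.06 ± 0.19 in si12A+C (SE, adjusted p = 0.004), -0.85 ± 0.18 in si12A (adjusted p = 0.018) and -0.61 ± 0.18 in si12C cells (adjusted p = 0.275), and without the block edgeR called neither of the first 2 (adjusted p = 0.293 and 0.581). Scaling to all reference genes, with the block, ended both calls (adjusted p = 0.091 and 0.142). With the block and TMM scaling, the si12A+C call was lost without mouse 3 (adjusted p = 0.053). The si12A call was lost without mouse 2 or 3, and without the siGLO or the si12A library of either of these mice (adjusted p-values of 0.076 to 0.126). Cx3cr1 was thus 1 of 8 receptors called lower against siGLO in si12A+C and in si12A cells, beside 2.62% and 3.63% of all probes. The other 7 receptors were not called in any comparison, and Ccr1, a receptor of Ccl3, Ccl5, Ccl7 and Ccl9, was at 311.7 to 1028 scaled counts. Pf4 (Cxcl4), a platelet chemokine whose symbol the rule did not cover, had 9.60 to 28.3 scaled counts and was not called (si12A over siGLO -0.65 ± 0.26, adjusted p = 0.117).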

How the data were processed

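The authors deposited raw counts per probe of the nCounter panel, with control probes and without scaling, background subtraction or pooling. A second deposited table holds log2 values of 325 probes, 10 of them chemokine ligands. The scaling of this table is not given in the sources used here, and the differences between mice are nearly absent from it (SD of mouse means 0.0110, against 0.420 in the counts on the same scale), so it served only as an alternative. The study's methods name nSolver and Omics Playground.

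Of 734 endogenous probes 476 passed the background rule, and with 20 reference probes 496 entered the fits of edgeR 4.0.16 (R 4.3.3, TMM scaling, quasi-likelihood F test, all 12 samples). The SE was derived from the log2 fold change and its F statistic. All adjusted p-values are from edgeR's test with Benjamini-Hochberg adjustment unless DESeq2 1.42.0 or limma 3.58.1 is named. The fit without a mouse term was the main one, since the methods name none, and the fit with the replicate number as a block was its alternative. The design text gives 3 mice, and the count headers carry the numbers through all 4 groups. Deviations from the group means correlated at 0.166 to 0.864 over the 18 pairs of equal number and at -0.752 to 0.628 over the 36 others. Deviations within a group cancel out, so where equal numbers agree the others are pushed negative, and this contrast is partly fixed in advance. The siGLO and si12C samples of number 1 correlated at 0.580 and 0.628 with si12A+C number 3, and at 0.166 and 0.178 with si12A+C number 1. No replicate pair agreed within sampling noise (chi-square per degree of freedom of at least 15.0). Values per sample were given for members called in either fit or averaging 100 or more scaled counts in any group, and Ccl22, Ccl26 and Cx3cr1 were added after their values were seen. The members and lists were chosen with earlier results of these data known. The fits were also run on simulated data in which equal replicate numbers shared a built-in effect. That run cannot show whether the pairing holds here or which fit is right. Alternatives were other tools, scalings, no filter, and leaving out each mouse or library.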

Additional observations from a re-analysis of the deposited data

Results flagged for a closer look

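Ccl21a and Ccl22, both near the background limit, moved in opposite directions depending on the other knockdown. Ccl21a was lower in si12A than in siGLO cells in 3 of 3 mice, but higher in si12A+C than in si12C cells in 3 of 3 mice, and likewise lower in si12C than in siGLO and higher in si12A+C than in si12A cells. Both pairs of Ccl21a comparisons are the same departure from additivity, not separate observations. This departure was 0.89 ± 0.36 on the log2 scale (SE, edgeR with the block, unadjusted p = 0.029, adjusted p = 0.543). Ccl22 was lower in si12C than in siGLO cells in 3 of 3 mice and higher in si12A+C than in si12A cells in 3 of 3 mice, with a departure of 0.81 ± 0.35 (unadjusted p = 0.039, adjusted p = 0.543). Neither passed the adjustment. Both ligands were picked because their ratios took opposite signs in 3 of 3 mice of these same samples. A large departure follows from that choice, so the p-values are no separate support. How many other probes meet this rule was not counted.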

How the results depend on the processing

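The number of ligands called was 0 in every comparison of the fit without the block. With the replicate block it was 1 for si12A+C against siGLO (Ccl17), 1 for si12A+C against si12C (Ccl5) and 1 for si12A against si12C (Ccl5), and it changed no other count. DESeq2 with the block gave 1, 0 and 2, limma-trend with the block 1, 0 and 1, all reference genes with the block 1, 0 and 1, no filter on low counts with the block 1, 0 and 2, and no fold limit with the block 2, 1 and 1 (the last chosen after seeing the data), in the same order. The deposited log2 table gave 1, 2 and 2, and 2 for si12C against siGLO (Ccl17 and Ccl5 higher). It was fitted with limma-trend without a block, although the differences between mice are nearly absent from it. Its p-values may therefore be too small. For the departure from additivity it called 19 probes, where edgeR with the block called 0. Leaving out mice or single libraries, with or without the block, gave 0 to 1 for si12A against siGLO, 0 to 1 for si12C against siGLO, 0 to 3 for si12A+C against siGLO, 0 to 1 for si12A+C against si12C and 0 to 4 for si12A against si12C.

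Ccl17 and Ccl5 kept their direction under each scaling run, but Ccl5 in si12A+C against si12C lost its call with the block under well-detected reference genes (-0.41, adjusted p = 0.094), positive controls (-0.68, adjusted p = 0.571) and all reference genes (-0.54, adjusted p = 0.433). Well-detected reference genes with the block shifted the median of all probes by 0.26 in si12A and 0.28 in si12A+C against siGLO and called 3 in each (all higher), 3 for si12A+C against si12C (all higher) and 4 for si12A against si12C. Positive controls with the block shifted the median by -0.49 in si12A against siGLO and called 8 there (all lower), 3 for si12A+C against si12A (all higher) and 7 for si12A against si12C (all lower), and they ended the Ccl17 call (0.65, adjusted p = 0.324). The departure from additivity had 0 calls under each alternative run. The number above background was 15 at the mean plus 3 SD and 11 when required in all 12 samples. The number of mice limits the precision of every value.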
